A study of Homo sapiens with 9 samples.

Results

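The genes described here were the 3 small C-terminal domain phosphatases CTDSPL, CTDSP1 and CTDSP2 and the 3 retinoblastoma (RB) family genes RB1, RBL1 and RBL2. They are 6 of the 15354 genes in the table and were taken by their symbols. They were chosen with results from these libraries already known, above all the low CTDSPL level after siRNA A, so their differences between siRNA A and control, and that of CTDSPL between the siRNAs, are given as a description with no test. RNA was sequenced from HCT116, an established human colorectal cancer cell line, after reverse transfection of small interfering RNAs (siRNAs) at 25 nM. The series asked which transcripts change when SNHG5, a long non-coding RNA, is depleted. The 9 libraries were 3 each from cells given a commercial non-targeting control siRNA, siRNA A against SNHG5 or siRNA B against SNHG5. The methods of the study call the replicates biological but do not say what was kept separate, so p-values measure only the spread between these libraries.

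The CTDSP phosphatases remove phosphate from serines, on the tail of the largest RNA polymerase II subunit and on RB itself, and they are recruited to neuronal genes by the repressor REST. RB1, RBL1 (p107) and RBL2 (p130) are the pocket proteins. In their unphosphorylated form they bind E2F transcription factors and hold back genes of the cell cycle, and cyclin-dependent kinases release that hold by phosphorylating them. CTDSPL has been described as a tumour suppressor that keeps RB unphosphorylated, and each CTDSP gene carries a gene of the microRNA-26 family within an intron.

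The libraries held from 15566530 to 23277549 reads, and siRNA A replicate 2 and siRNA B replicate 2 were the shallowest. SNHG5 itself was higher, not lower, in the libraries labelled as its knockdown: it averaged 26.5 ± 4.66 CPM (reads per library total, brought to a common total) in control, 65.9 ± 6.45 in siRNA A and 47.5 ± 2.40 in siRNA B (SD, n = 3 each). The adjusted p-values were 1.86e-05 and 5.90e-04 (limma, as for all tests below). The groups are therefore named only as the libraries labelled siRNA A and siRNA B. The study also measured the depletion by quantitative RT-PCR, a separate assay that is not analysed here. These averages are scaled by the trimmed mean of M values (TMM), which sets the bulk of genes equal between libraries. On that scale the 13893 tested genes had a median log2 difference from control of −0.02 (siRNA A) and 0.0043 (siRNA B). Scaled by library totals alone, the medians were −0.34 and −0.18. Of 9 markers of colorectal epithelium all were read in every library, from KRT8 (884 to 1601 CPM) down to CLDN3 (2.25 to 5.76 CPM). Of 4 markers of fibroblasts and muscle, COL3A1 stayed at or below 0.143 CPM, DES at or below 1.29, ACTA2 at or below 5.81 and COL1A1 at or below 19.5. In such bulk libraries fewer cells that express a gene and less RNA per cell cannot be told apart.

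The microRNAs inside the phosphatase genes are shown first because each of the 3 genes carries one and all share a seed. Within CTDSPL lies MIR26A1, within CTDSP2 lies MIR26A2 and within CTDSP1 lies MIR26B, each on the strand of its host. The first pair gives the same main product, and capitals mark the seed, bases 2 to 8 of the mature strand (sequences from RefSeq, build GRCh38.p14).
hsa-miR-26a-5p (MIR26A1, chr3:37969413-37969434, plus strand, and MIR26A2, chr12:57824658-57824679, minus strand): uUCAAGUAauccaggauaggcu
hsa-miR-26b-5p (MIR26B, chr2:218402657-218402677, plus strand): uUCAAGUAauucaggauaggu
All 3 genes thus give 1 seed, UCAAGUA. Its complement in an mRNA, TACTTGA, was searched in the 3′ untranslated region (UTR) of the canonical transcript of each of the 6 genes, on the transcript strand. It occurred only in RB1, once, at base 815 of the 1819 bases of that region, at chr13:49055007-49055034 on the plus strand of GRCh37, with the match in capitals.
RB1 3′ UTR site: aaagtacccatctagTACTTGAaaaagt
Of 19403 canonical 3′ UTRs, 2251 (11.6%) held the same letters. A match describes letters and is no evidence of binding. The microRNAs themselves are not analysed here.

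**Figure D1:**
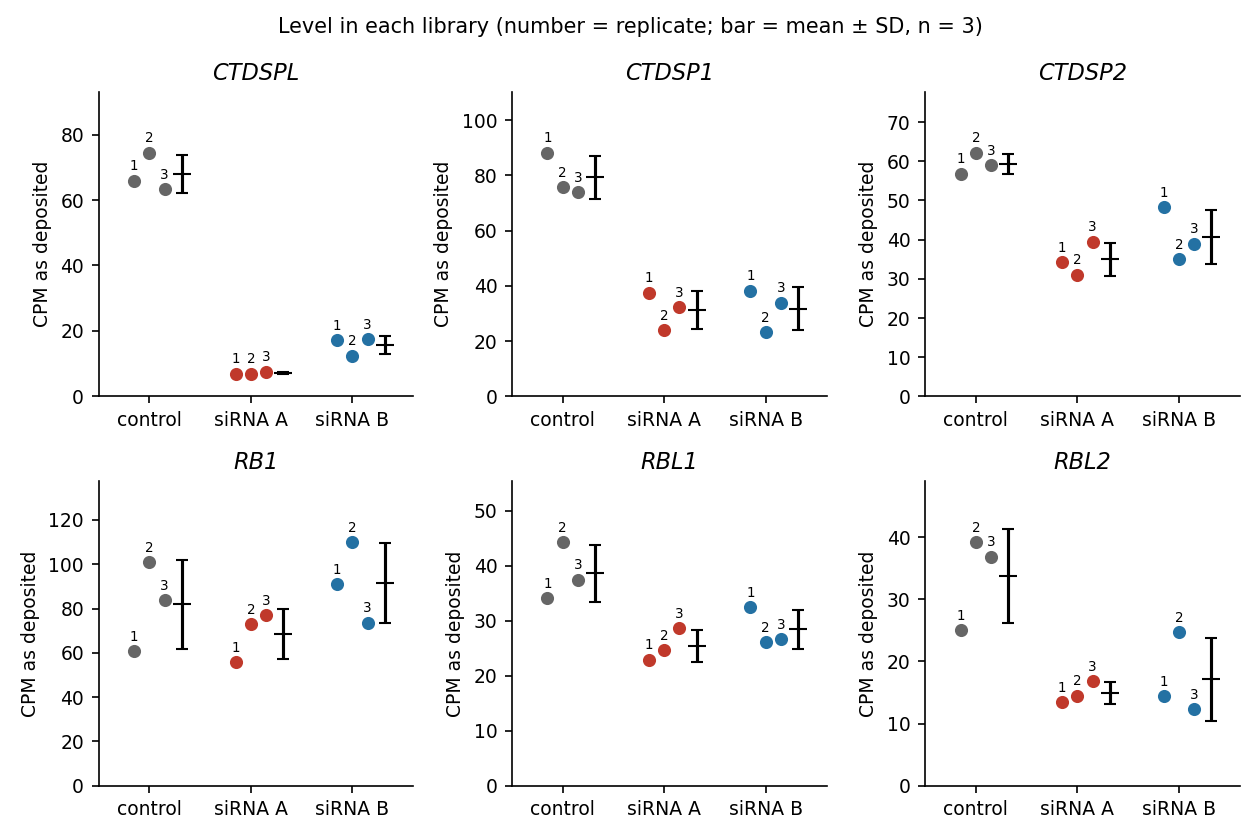
CPM as deposited (vertical axis, from 0) of the 6 genes in each library, by group, with the replicate number above each point and a black bar for the mean ± SD of 3 libraries. CTDSPL sits between 63.4 and 74.4 CPM in control, 6.89 and 7.50 in siRNA A and 12.4 and 17.5 in siRNA B, with no overlap of groups, while the RB1 groups overlap throughout.

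CTDSPL (ENSG00000144677.10, chr3:37903371-38025960, plus strand, GRCh37) was high in control and low in both siRNA groups. The control libraries stood at 65.9, 74.4 and 63.4 CPM. The siRNA A libraries stood at 6.89, 6.94 and 7.50 CPM, and the siRNA B libraries at 17.1, 12.4 and 17.5 CPM. All 3 groups lay apart, with siRNA A lowest, and the values rest on 1314 to 1453 reads in control, 108 to 153 in siRNA A and 203 to 407 in siRNA B. On the TMM scale they averaged 59.3 ± 2.75, 8.02 ± 0.272 and 15.8 ± 2.45 CPM, so that siRNA A held 13.5% and siRNA B 26.7% of the control level. The log2 difference from control for siRNA A, on log2(CPM + 1), was −2.74 (SE 0.12), which stood at rank 2 from the lowest of the 13893 genes tested. This value chose the gene. For siRNA B, whose comparison shares the control libraries with the one that chose the gene, CTDSPL fell by 1.85 on the log2 scale (95% interval −2.12 to −1.58, adjusted p = 2.06e-06), rank 25 from the lowest. It lay 0.89 lower in siRNA A than in siRNA B (log2 −0.89, SE 0.12), again as a description.

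CTDSP1 (ENSG00000144579.3, chr2:219261859-219270664, plus strand) was about as low in one siRNA group as in the other. The control libraries stood at 88.1, 75.7 and 74.0 CPM. The siRNA A libraries held 37.6, 23.9 and 32.2 CPM and the siRNA B libraries 38.3, 23.3 and 33.9 CPM. No library of either siRNA reached the lowest control library, and in both siRNA groups replicate 2, the shallowest library, was the lowest. The log2 difference was −0.98 (SE 0.17) for siRNA A and −1.11 (SE 0.17, adjusted p = 5.77e-04) for siRNA B. Between the siRNAs the difference was 0.13 (95% interval −0.24 to 0.51, adjusted p = 0.577), so either siRNA could lie above the other by the amounts in that interval.

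CTDSP2 (ENSG00000175215.5, chr12:58213710-58240512, minus strand) differed least among the phosphatases. Its control libraries stood at 56.9, 62.1 and 58.9 CPM. The siRNA A libraries stood at 34.3, 31.0 and 39.5 CPM and the siRNA B libraries at 48.2, 34.9 and 38.9 CPM. The groups did not overlap with control. The log2 difference was −0.39 (SE 0.11) for siRNA A and −0.34 (SE 0.11, adjusted p = 0.0362) for siRNA B. That call did not survive leaving out any 1 of the control libraries, or replicate 2 or 3 of siRNA B, with differences from −0.36 to −0.26 and adjusted p from 0.0529 to 0.106. Between the siRNAs it differed by −0.06 (95% interval −0.30 to 0.19, adjusted p = 0.720).

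RB1 (ENSG00000139687.9, chr13:48877880-49173572, plus strand), the founding pocket protein, showed no separation of groups. The control libraries stood at 60.8, 100.9 and 83.8 CPM. The siRNA A libraries stood at 55.8, 72.8 and 77.0 CPM and the siRNA B libraries at 91.1, 110.0 and 73.5 CPM. Control replicate 1 was low and siRNA B replicate 2 high, and the 3 groups overlapped. The log2 difference was 0.13 (SE 0.20) for siRNA A, but −0.24 with library totals alone and −0.06 without control replicate 1. Same-numbered libraries of control and siRNA A were also set side by side. On the TMM scale RB1 went from 53.4 to 62.4, from 84.6 to 85.6 and from 75.9 to 84.2 CPM. It was higher in siRNA A in all 3. In CPM as deposited it was lower in siRNA A in all 3, from 60.8 to 55.8, 100.9 to 72.8 and 83.8 to 77.0. The direction between these libraries therefore turned with the scaling, and whether their numbers pair them was not tested. For siRNA B the log2 difference was 0.38 (95% interval −0.05 to 0.81, adjusted p = 0.155). RB1 overlaps RCBTB2 on the other strand, which stood 0.47 above control in siRNA B (adjusted p = 0.0354). That call was lost, at 0.36 to 0.52, on leaving out any 1 control library or replicate 2 or 3 of siRNA B. Whether counting used the strand is not given in the sources used here. The overlap is one of gene bodies, and whether exons of the 2 genes overlap was not examined. Any part of RCBTB2 reads in the RB1 values was not tested.

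RBL1 (ENSG00000080839.7, chr20:35624752-35724400, minus strand), which is itself an E2F target, did not pass the test for siRNA B. The control libraries stood at 34.1, 44.3 and 37.5 CPM. The siRNA A libraries stood at 22.9, 24.6 and 28.6 CPM and the siRNA B libraries at 32.5, 26.1 and 26.7 CPM. In CPM neither siRNA group overlapped control, but on the TMM scale both did, at 33.7 ± 3.58, 28.6 ± 2.85 and 28.7 ± 2.29 CPM. The log2 difference was −0.23 (SE 0.12) for siRNA A and −0.22 (95% interval −0.48 to 0.04, adjusted p = 0.169) for siRNA B, and with totals alone the latter became −0.43 (adjusted p = 0.0278).

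RBL2 (ENSG00000103479.10, chr16:53467889-53525560, plus strand), the pocket protein of resting cells, was low in both siRNA groups with 1 exception. The control libraries stood at 25.0, 39.2 and 36.9 CPM. The siRNA A libraries stood at 13.4, 14.5 and 16.8 CPM and the siRNA B libraries at 14.4, 24.7 and 12.3 CPM. Control replicate 1 was the lowest of its group, and siRNA B replicate 2, nearly as high in CPM, lay above it on the TMM scale. The log2 difference was −0.76 (SE 0.24) for siRNA A and −0.77 (SE 0.24, adjusted p = 0.0271) for siRNA B. Leaving out replicate 2 or 3 of the control, or 1 or 3 of siRNA B, ended the latter call, at −0.69 to −0.58 and adjusted p from 0.0934 to 0.0989. RBL2 ends inside AKTIP, a gene of the other strand, which stood at −0.40 in siRNA A and at 0.10 in siRNA B relative to control, neither past the threshold, though with the replicate number as a block the siRNA A value was called (adjusted p = 0.0447), as it was without control replicate 1 (−0.52) and with library totals alone (−0.64).

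For siRNA B, 4 of the 6 genes passed the test, all lower than control (CTDSPL, CTDSP1, CTDSP2 and RBL2). Over all genes tested 18.3% were lower and 34.0% passed in either direction. On the TMM scale 3 of the 6, the phosphatases, lay below control without overlap, as did 25.1% of all genes. For siRNA A the phosphatases and RBL2, 4 of 6, lay below control without overlap, where 31.9% of all genes did, 27.6% were called lower and 51.4% were called in all. Nothing is read from that count because siRNA A chose the genes. Both comparisons share the 3 control libraries, and 11.7% of all genes were lower with both siRNAs. Between the siRNAs none of the 5 genes tested differed, by limma with adjusted p from 0.334 to 0.976, where 37.1% of all genes did. None of them had an unadjusted p under 0.05 either, and edgeR and DESeq2 also called 0. RB1 lay at −0.25 (95% interval −0.68 to 0.18), RBL1 at −0.01 (−0.26 to 0.25) and RBL2 at 0.01 (−0.51 to 0.53) in siRNA A minus siRNA B.

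**Figure D2:**
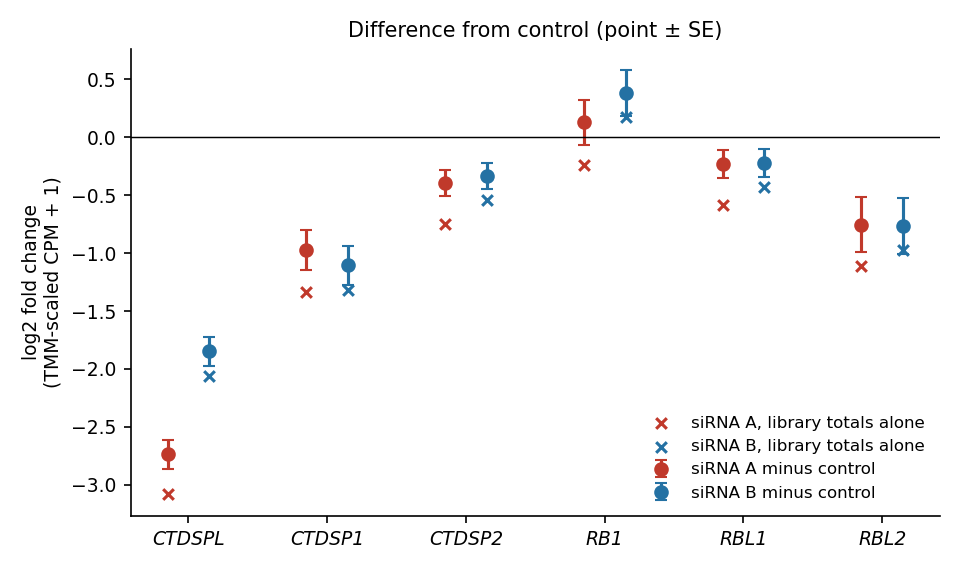
Log2 difference from control of the 6 genes on log2(TMM-scaled CPM + 1) for siRNA A (red) and siRNA B (blue), as points ± SE from limma (3 libraries a group), with crosses for the same difference by library totals alone. The CTDSPL points lie at −2.74 and −1.85, while the RB1 points for siRNA A fall on either side of 0 with the scaling (0.13 and −0.24).

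Because the phosphatases act on shared substrates, their levels were also set against each other per kilobase of exon, on the TMM scale. In control the order was CTDSP1 (14.6 ± 1.53 CPM per kb), RB1 (11.1 ± 2.50), CTDSPL (10.1 ± 0.468), CTDSP2 (9.54 ± 0.314), RBL1 (5.66 ± 0.601) and RBL2 (3.63 ± 0.793). RB1, CTDSPL and CTDSP2 lay within their spread of each other there. In siRNA A the order was RB1 (12.0 ± 2.03), CTDSP1 (7.40 ± 1.46), CTDSP2 (7.24 ± 0.636), RBL1 (4.81 ± 0.478), RBL2 (2.07 ± 0.210) and CTDSPL (1.37 ± 0.0464). CTDSPL thus moved from the third place to the last, and CTDSP1 and CTDSP2 did not differ beyond their spread. In siRNA B the order was RB1 (14.5 ± 3.26), CTDSP2 (7.56 ± 0.922), CTDSP1 (6.75 ± 1.39), RBL1 (4.82 ± 0.385), CTDSPL (2.69 ± 0.417) and RBL2 (2.16 ± 0.921). There again CTDSP1 and CTDSP2, and also CTDSPL and RBL2, lay within their spread. These orders use the length of all exons of a gene. By the longest transcript CTDSP1 made up 57.5% of the phosphatase sum in siRNA A and 50.7% in siRNA B. CTDSP2 then made up 35.2% and 35.5%, so CTDSP1 stood above CTDSP2 with either siRNA.

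The summed level of the 3 phosphatases was 34.2 ± 1.005 CPM per kb in control, 16.0 ± 1.72 in siRNA A and 17.0 ± 2.56 in siRNA B. Of that sum CTDSPL made up 29.5 ± 1.93% in control, 8.61 ± 1.17% in siRNA A and 15.9 ± 1.28% in siRNA B, and the share of CTDSP2 was 27.9 ± 1.67%, 45.4 ± 3.86% and 44.7 ± 3.18%. The pocket protein sum was 20.4 ± 3.85, 18.9 ± 2.66 and 21.4 ± 4.10 CPM per kb, and its groups overlapped. Within it the RB1 share was 51.7%, 56.1% and 54.6% in the control libraries, 61.2%, 65.7% and 63.5% in siRNA A and 66.2%, 69.7% and 65.6% in siRNA B. The RB1 share was higher in every siRNA library than in any control library although RB1 itself did not pass the test, as RBL1 and RBL2 made up less of the sum. The ratio of the phosphatase sum to the pocket protein sum was 2.20, 1.43 and 1.56 in control, 1.09, 0.692 and 0.813 in siRNA A and 0.929, 0.548 and 0.991 in siRNA B, again without overlap with control. These shares and ratios are a description and were not tested. The phosphatase sum, the shares in it and the ratio all contain CTDSPL, which was chosen for its low level after siRNA A. Nothing is therefore read from their separation from control.

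**Figure D3:**
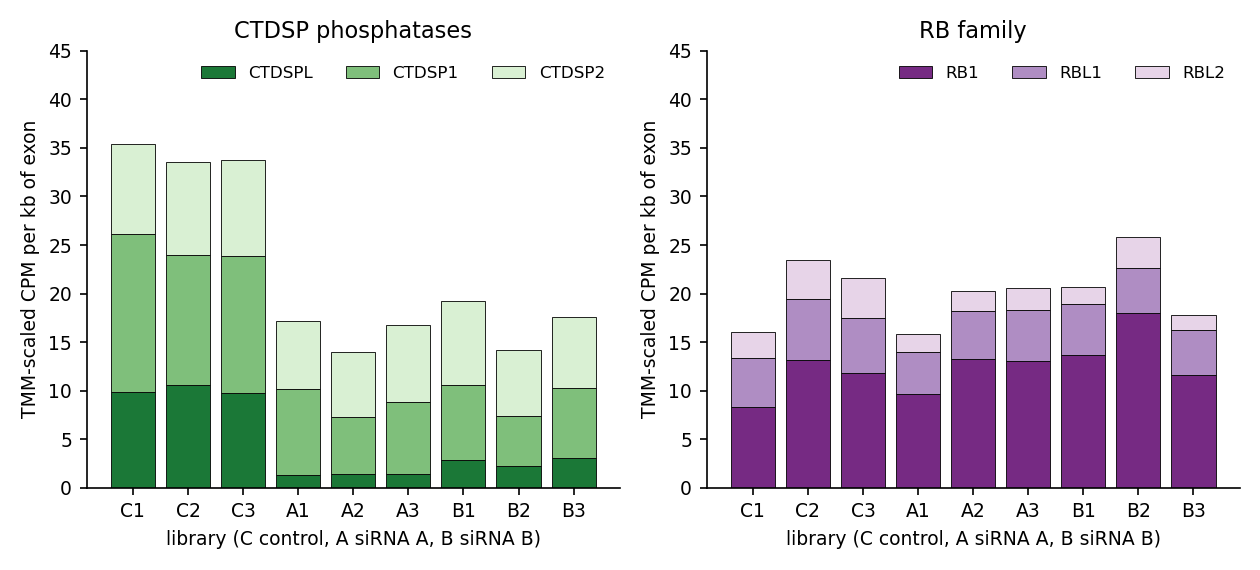
TMM-scaled CPM per kilobase of exon in each of the 9 libraries, stacked by gene, for the CTDSP phosphatases (left) and the RB family (right). The phosphatase stacks average 34.2 in control, 16.0 in siRNA A and 17.0 in siRNA B, while the RB family stacks overlap between groups and hold a larger RB1 portion in the siRNA libraries.

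Within groups some pairs of the genes varied together and others did not. In CPM as deposited, RB1 and RBL2 ranked the 3 libraries in the same order in each group, but on the TMM scale they did not in control and siRNA A. Their deviations from the group means correlated with r = 0.89 over the 9 libraries. Those of CTDSP1 ran the other way, with r = −0.83 to RB1 and −0.79 to RBL2. These are descriptions over libraries that share their depth and handling, and siRNA A replicate 2 and siRNA B replicate 2, the shallowest, were the lowest of their groups for CTDSP1. The part of depth in this was not tested.

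Over the 9 libraries, the genes whose log2 levels followed CTDSPL most closely among 10652 genes compared were PPP1R11 (r = 0.994), FLJ20373 (0.994), FLOT2 (0.993), CC2D1A (0.993) and MGRN1 (0.992). FLOT2, a membrane scaffold protein, averaged 43.3, 9.48 and 14.5 CPM in control, siRNA A and siRNA B, and PPP1R11, an inhibitor of protein phosphatase 1, averaged 41.5, 20.2 and 25.8 CPM. The closest to CTDSP1 were PDCD6, RMDN3 and PKIB (r from 0.989 to 0.991), and to CTDSP2 DCAF16, WDCP and DEPDC1B (0.966 to 0.980). RB1 was followed by USP24, BLTP3B and TUBGCP3 (0.969 to 0.983), RBL2 by CAMK4, LANCL1 and PARM1 (0.972 to 0.978) and RBL1 less closely by SUFU, ETV1 and NAB1 (0.916 to 0.929). The 9 libraries fall into 3 groups, so each r includes the differences between group means.

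CTDSPL lies on the short arm of chromosome 3, and 9 other tested genes lie within 500 kb of it. For siRNA A 1 of these was higher and 2 were lower, and for siRNA B 0 were higher and 4 lower. Over all genes tested 51.4% were called and 27.6% lower for siRNA A, and 34.0% called and 18.3% lower for siRNA B. PLCD1, a phospholipase C gene whose nearer edge lies 23.0 kb beyond CTDSPL, fell by 0.92 for siRNA A (adjusted p = 0.00136) and by 0.98 for siRNA B (adjusted p = 0.00165). XYLB, a xylulose kinase gene 362 kb away, fell by 0.98 (adjusted p = 0.00209) and by 0.77 (adjusted p = 0.0139, no longer called at −0.65 without siRNA B replicate 1). The other calls were smaller: for siRNA B, DLEC1 at −0.39 (not called, at −0.39 to −0.35, if replicate 1 or 2 of control or 2 or 3 of siRNA B is left out) and ACAA1 at −0.42 (not called at −0.36 without siRNA B replicate 1), and for siRNA A, OXSR1 at 0.35. The OXSR1 call ended when control replicate 1 (0.31) or siRNA A replicate 3 (0.32) was left out, and its sign turned with library totals alone (−0.01). No neighbour moved as far as CTDSPL, but CTDSPL was chosen for its low level after siRNA A, so nothing is read from that. The 9 had a median difference of −0.11 (siRNA A) and −0.35 (siRNA B).

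**Figure D4:**
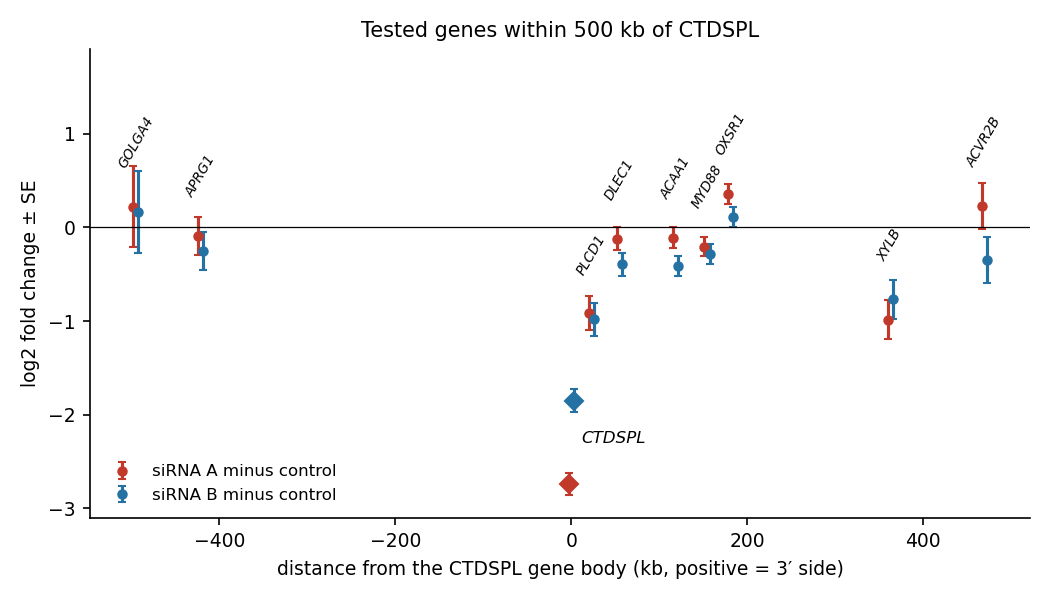
Log2 difference from control (± SE) of the 9 tested genes within 500 kb of CTDSPL against their distance from it in kb, for siRNA A (red) and siRNA B (blue), with CTDSPL itself as diamonds at distance 0. PLCD1 and XYLB lie between −0.98 and −0.77, the other neighbours between −0.42 and 0.35, and CTDSPL at −2.74 and −1.85.

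The surroundings of the 6 genes were described through 10 lists of 105 genes, of which 103 were tested. For siRNA A 25 were higher and 31 lower, or 54.4% called against 51.4% of all genes, with a median log2 difference of −0.08 against −0.02. For siRNA B 20 were higher and 21 lower, 39.8% called against 34.0% of all genes, with a median of 0.03 against 0.0043. The direction leaned on the scaling: with library totals alone the counts became 7 higher and 58 lower for siRNA A and 9 higher and 28 lower for siRNA B. Values below are on the TMM scale.

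Among 8 genes of phosphatases of the same fold or the same substrate, with that substrate POLR2A, 3 were higher and 2 lower for siRNA A, and 2 higher and 3 lower for siRNA B. SSU72, another phosphatase of the polymerase tail, averaged 71.2 ± 6.80, 126 ± 18.9 and 135 ± 5.40 CPM and rose with both, by 0.81 and 0.92 (adjusted p = 2.19e-04 and 1.89e-04). CTDNEP1 was also called higher with both siRNAs, while CTDP1 and the substrate POLR2A were called lower with both. In control, siRNA A and siRNA B, CTDP1 averaged 36.2 ± 1.73, 22.9 ± 1.39 and 21.2 ± 1.27 CPM. POLR2A averaged 420 ± 94.7, 265 ± 26.8 and 285 ± 27.5 CPM. CTDSPL2, the nearest relative by name, averaged 64.9 ± 7.38, 114 ± 10.2 and 73.9 ± 12.0 CPM and rose for siRNA A by 0.80 (adjusted p = 4.65e-04), with 0.18 for siRNA B (adjusted p = 0.331). TIMM50, a mitochondrial import subunit of this fold, fell for siRNA B by 1.18 (adjusted p = 9.62e-05), with −0.34 for siRNA A (adjusted p = 0.0551, and 0.0261 with the replicate block). Of the REST repressor and its corepressors, 3 of 8 were higher and 0 lower for each siRNA by limma, but with totals alone it was 0 higher with 2 lower for siRNA A and 0 in either direction for siRNA B. RCOR1, the REST corepressor, stood at 0.51 and 0.44 (adjusted p = 0.0027 and 0.0106) and the deacetylase HDAC1 at 0.43 for siRNA B (adjusted p = 0.00348). The deacetylase HDAC2 stood at 0.37 for siRNA A, not called (0.26 to 0.36) if replicate 2 of control or 1 or 3 of siRNA A is left out, and at 0.39 for siRNA B, not called (0.27 to 0.42) if replicate 1 or 2 of control or 2 or 3 of siRNA B is left out.

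Of the 3 catalytic subunit genes of protein phosphatase 1, which strips phosphate from RB at the end of mitosis, 1 was higher and 1 lower for siRNA A and 0 higher and 1 lower for siRNA B. PPP1CA, the lower one, averaged 173 ± 11.1 CPM in control, 29.1 ± 1.83 in siRNA A and 33.9 ± 6.74 in siRNA B. It fell by 2.53 on the log2 scale (adjusted p = 5.70e-07) for siRNA A, and for siRNA B the difference was −2.33 (adjusted p = 1.01e-06), while PPP1CC rose by 0.55 for siRNA A (adjusted p = 5.51e-04), a call that of 16 alternatives only totals alone ended (0.18). The third subunit gene, PPP1CB, passed the test for neither.

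Among the 8 tested cyclin and kinase genes, whose products phosphorylate the pocket proteins, 2 were higher and 3 lower for siRNA A and 1 higher and 2 lower for siRNA B. CCND1 (cyclin D1) averaged 1034 ± 34.4, 1896 ± 94.8 and 1462 ± 109 CPM and rose by 0.87 (adjusted p = 7.30e-05) and 0.50 (adjusted p = 0.00468). CCND3 (cyclin D3) fell by 0.85 for siRNA A (adjusted p = 5.71e-04) and by 0.43 for siRNA B (adjusted p = 0.0399), the latter not called (−0.46 to −0.24) if any 1 control library, replicate 1 or 3 of siRNA A or replicate 2 of siRNA B is left out. CCNE1 (cyclin E1) fell by 0.32 (adjusted p = 0.0150, lost without control replicate 3 at −0.29) and by 0.79 (adjusted p = 1.29e-04). CCND2 was too low to be tested. Of 7 kinase inhibitor genes 3 were higher and 2 lower for each siRNA. CDKN1A (p21) averaged 188 ± 5.52, 356 ± 49.6 and 620 ± 22.2 CPM and rose by 0.91 (adjusted p = 5.73e-05) and 1.72 (adjusted p = 1.71e-06), and CDKN2A (p16 and p14ARF) rose by 0.99 and 0.85 (adjusted p = 2.11e-04 and 0.00109). CDKN1C (p57), at 7.18 ± 1.27 CPM in control, fell by 1.03 and 0.90 (adjusted p = 5.32e-04 and 0.00225).

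The partners of the pocket proteins came next. Of 10 E2F and DP genes 2 were higher and 6 lower for siRNA A and 1 higher and 4 lower for siRNA B. E2F1, the activator that RB1 binds, averaged 31.2 ± 1.29 CPM in control, 9.18 ± 1.61 in siRNA A and 14.4 ± 3.59 in siRNA B, and fell by 1.67 (adjusted p = 2.39e-05) and 1.09 (adjusted p = 7.20e-04). Its partner TFDP1 fell by 1.02 and 0.40 (adjusted p = 2.02e-05 and 0.0108), while E2F3 rose by 0.43 and 0.60 (adjusted p = 0.00793 and 0.00196), the former at 0.06 and not called with totals alone. Of the 8 genes around the MuvB core, which RBL1 and RBL2 join to form the DREAM repressor, 2 were higher and 3 lower for siRNA A and 3 higher and 1 lower for siRNA B. MYBL2, the activator that takes the place of the pocket proteins, averaged 199 ± 8.17, 46.9 ± 1.87 and 85.0 ± 17.3 CPM and fell by 2.06 and 1.24 (adjusted p = 1.96e-06 and 6.07e-05). DYRK1A, the kinase that assembles DREAM, rose by 1.03 and 0.96 (adjusted p = 3.89e-05 and 1.19e-04), and LIN52, the subunit it phosphorylates, fell for siRNA A by 1.29 (adjusted p = 1.74e-04), with −0.17 for siRNA B. Of 8 chromatin partners 1 was higher and 3 lower for siRNA A and 0 higher and 3 lower for siRNA B. The remodeller ATPases SMARCA4 (189 ± 8.28, 73.0 ± 2.17 and 60.2 ± 2.41 CPM) and SMARCA2 (12.1 ± 1.14, 3.36 ± 0.800 and 4.07 ± 0.212 CPM) fell by 1.36 and 1.60 for siRNA A and by 1.63 and 1.37 for siRNA B, with adjusted p from 5.78e-07 to 6.73e-05.

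The split of the targets of these complexes into higher and lower depended on the scaling. Of 24 tested genes of S-phase entry, 7 were higher and 4 lower for siRNA A and 4 higher and 3 lower for siRNA B, and with totals alone it was 0 and 14, and 1 and 5. CDC45, a helicase factor of replication, fell by 1.46 for siRNA A (adjusted p = 2.29e-04), with −0.60 for siRNA B (adjusted p = 0.0515). The siRNA B value was called by DESeq2 (adjusted p = 0.0398), with totals alone (−0.81) and without replicate 2 of siRNA A or 1 or 3 of siRNA B, and leaving out 1 library it ran from −0.77 to −0.31. GINS2, of the same helicase, fell by 1.03 and 0.71 (adjusted p = 3.31e-04 and 0.00595), and MCM2 fell for siRNA B by 0.70 (adjusted p = 6.52e-04). Of 19 genes of mitosis, 1 was higher and 7 lower for siRNA A and 3 higher and 2 lower for siRNA B, and with totals alone it was 0 and 15, and 0 and 2. BIRC5 (survivin) averaged 168 ± 13.6, 95.8 ± 11.2 and 68.3 ± 13.5 CPM and fell by 0.81 and 1.31 (adjusted p = 8.14e-04 and 7.52e-05).

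**Figure D5:**
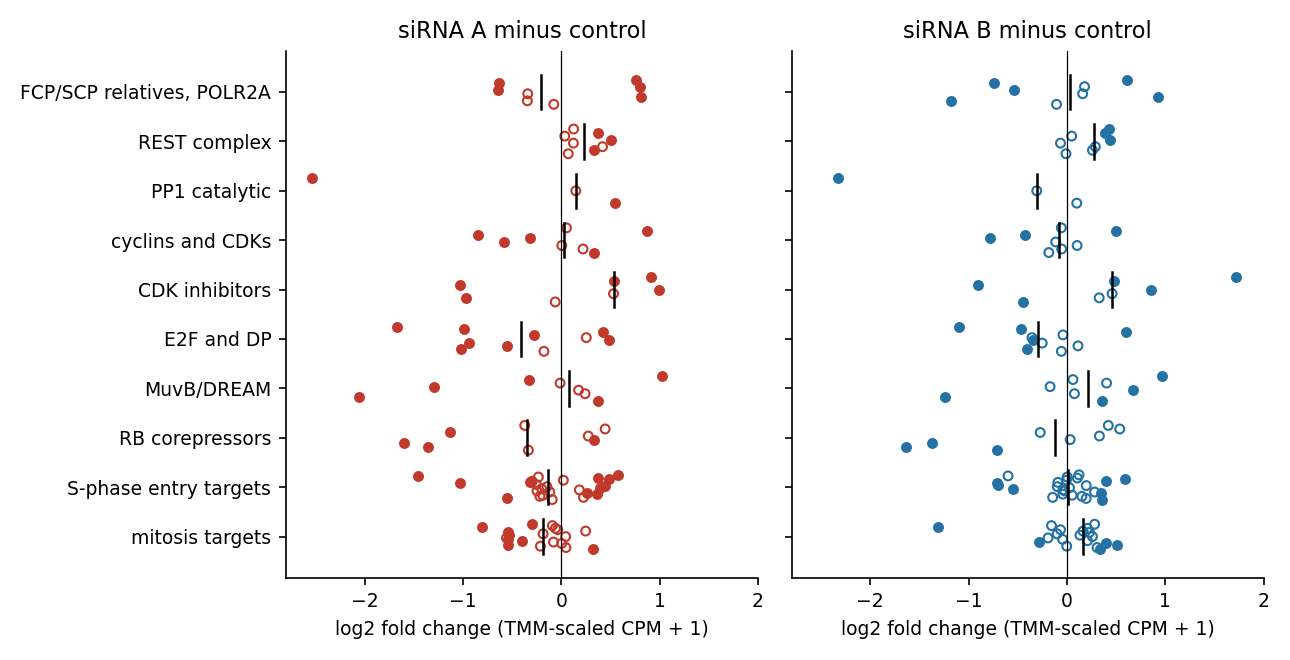
Log2 difference from control on log2(TMM-scaled CPM + 1) of each tested gene of the 10 lists (rows), for siRNA A (left) and siRNA B (right), with filled points for an adjusted p under 0.05 and a black line at the median of each list. PPP1CA lies farthest to the left, at −2.53 and −2.33, and points of the S-phase entry and mitosis lists spread on both sides of 0.

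Finally, promoters (250 bases before to 50 after the start site, RefSeq, GRCh38.p14) were searched on both strands for 4 E2F words, TTTCCCGC, TTTCGCGC, TTTGCCGC and TTTGGCGC. Of 35116 promoters 3.31% held at least 1 of them. Counted by gene, 3.99% of 27305 genes had a match in any promoter, and 15 of the 22 genes of S-phase entry with a promoter in the table did. CTDSPL was not searched. Of the other 5 genes the single promoter of RBL1 held a match and so did 1 of 7 promoters of CTDSP1, while 0 of 1 for CTDSP2 and RB1 and 0 of 2 for RBL2 did. RBL1 and E2F1 are shown because a pocket protein gene and an E2F gene both carried a pair of the words, with matches in capitals.
RBL1 promoter stretch (chr20:37095998-37096043, minus strand): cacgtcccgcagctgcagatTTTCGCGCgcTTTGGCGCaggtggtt
E2F1 promoter stretch (chr20:33686386-33686438, minus strand): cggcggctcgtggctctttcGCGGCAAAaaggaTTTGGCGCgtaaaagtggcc
The RBL1 matches began 26 and 16 bases before the start site and those of E2F1 33 and 20 bases before it. The 2 stretches share only the word TTTGGCGC, and their other word and the spacing differ. RBL1 stood at −0.23 and −0.22 and E2F1 at −1.67 and −1.09 for siRNA A and siRNA B. Any link of these values to the letters was not tested.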

How the data were processed

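RNA-seq libraries of HCT116 cells were made with oligo-dT selection and read as single ends, 3 each for control siRNA, siRNA A and siRNA B. The authors deposited 1 table of CPM values, a gene's reads over the total of its library at a common scale, with 15354 rows and 9 columns, each matched to a library by its name. The submitters' processing notes name TopHat2, HTSeq and GRCh37 (hg19), and the strand setting is not given in the sources used here. Every CPM value was a whole multiple of 1 read (100% within 0.01 reads), from which reads and totals were recovered. A single read was worth from 0.0430 to 0.0642 CPM. The 95% intervals come from limma and measure the spread between libraries. Tests for counts had been planned, but as the deposited values were CPM, limma 3.58.1 was fitted to log2(TMM-scaled CPM + 1) with a mean per group and a variance trend, over all 9 libraries and the 13893 genes that reached 1 CPM in 3 or more libraries. A fold change on this scale understates that of low genes. P-values were two-sided and Benjamini-Hochberg adjusted over all tested genes of a comparison, with a threshold of 0.05.

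The edgeR 4.0.16 quasi-likelihood test on the recovered reads was an alternative and called 7160 genes for siRNA A and 4780 for siRNA B against control, where limma called 7145 and 4719. DESeq2 1.42.0, scaling by library totals, a pseudocount of 0.1, no filter on low values, a replicate block, fits of only the groups compared and leaving out each library were the other alternatives (R 4.3.3). The fit was tested on simulated data. Deviations from the group means in same-numbered libraries of control and siRNA A correlated across genes (r = 0.65, 0.41 and 0.13 for numbers 1, 2 and 3). Libraries of unlike number were not compared in this way, so whether the numbers pair the groups was not tested. No pair of libraries agreed within sampling noise. Identifiers were matched without version to GENCODE lifted to GRCh37 (14871 matched, 483 did not), and promoters and microRNAs to RefSeq tables with Python 3.11.15. The correlations of likeness used genes averaging at least 5 CPM.

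The genes and lists were chosen with earlier results of these data known. Named were all 6 genes, up to 2 called genes with the largest change per list and comparison with control, genes called in opposite directions by the siRNAs, the 5 genes most like CTDSPL and the 3 most like each other gene, the targeted SNHG5 and the microRNA hosts. The genes near CTDSPL, the genes overlapping RB1 and RBL2, PPP1CB and CCND2 were named after their values were seen. So were CTDP1, CTDNEP1, POLR2A, POLA1 and CHEK1, as genes of their lists called in the same direction with both siRNAs. UHRF1, CDX1, PTPRC, CD3E, CD79A, PECAM1 and VWF of the lists are not analysed here.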

Additional observations from a re-analysis of the deposited data

Results flagged for a closer look

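E2F6, a repressive E2F that does not bind pocket proteins, was called in opposite directions by the siRNAs. It averaged 13.3 ± 0.741 CPM in control, 19.0 ± 0.854 in siRNA A and 10.3 ± 1.30 in siRNA B (TMM scale, SD, n = 3), higher by 0.48 on the log2 scale for siRNA A (limma, adjusted p = 0.00506) and lower at −0.35 for siRNA B (adjusted p = 0.0407). The tested difference, siRNA A minus siRNA B, was 0.83 (adjusted p = 3.32e-04), and it was called in 16 of 16 alternatives. The siRNA B call alone was lost in 9 of 16, among them without any 1 control library or without replicate 1 or 3 of siRNA A or 2 or 3 of siRNA B (−0.39 to −0.27), and that of siRNA A with library totals alone (0.14).

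TOP2A, the topoisomerase of mitotic chromosomes, averaged 391 ± 59.2 CPM in control, 268 ± 45.4 in siRNA A and 556 ± 86.7 in siRNA B. It stood at −0.55 (adjusted p = 0.0132) and 0.51 (adjusted p = 0.0281) by limma, and siRNA A minus siRNA B was −1.05 (adjusted p = 4.67e-04), called in 16 of 16 alternatives. Leaving out control replicate 1 (−0.42) or replicate 2 of siRNA A (−0.40) ended the first call, and that of siRNA B ended without replicate 2 or 3 of control or 1 or 3 of siRNA B (0.39 to 0.52) and with totals alone (0.29).

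ACTA2, a smooth muscle actin read at low level, averaged 2.39 ± 0.581 CPM in control, 1.12 ± 0.274 in siRNA A and 4.63 ± 1.32 in siRNA B. It stood at −0.67 (adjusted p = 0.0110) and 0.72 (adjusted p = 0.0125) by limma, the former lost without control replicate 2 (−0.54), and siRNA A minus siRNA B was −1.39 (adjusted p = 2.46e-04), called in 16 of 16 alternatives.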

How the results depend on the processing

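Of 288 alternative values for the 6 genes (16 alternatives, 3 comparisons), 252 kept their direction and side of the threshold or stayed within 1 SD. With library totals alone the siRNA A differences moved to −3.08 for CTDSPL, −1.34 for CTDSP1, −0.75 for CTDSP2, −0.24 for RB1, −0.59 for RBL1 and −1.11 for RBL2, RBL1 passed for siRNA B (−0.43), and siRNA A minus siRNA B turned to −0.020 for CTDSP1 and −0.13 for RBL2. The CTDSPL value for siRNA A was −2.87 with a pseudocount of 0.1, −2.88 by edgeR and −2.86 by DESeq2. The uncalled differences between the siRNAs turned to 0.016 for RBL1 by DESeq2 and, for RBL2, to −0.046 by edgeR and −0.035 by DESeq2.

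Leaving out 1 library, the difference between the siRNAs ran from −0.043 to 0.28 for CTDSP1, −0.13 to 0.042 for CTDSP2, −0.071 to 0.068 for RBL1 and −0.18 to 0.32 for RBL2. That of RB1 for siRNA A ran from −0.059 to 0.27, and for siRNA B that of CTDSP2 ran from −0.44 to −0.26 and that of RBL2 from −1.08 to −0.58. No setting ended the siRNA B call of CTDSPL (adjusted p up to 4.92e-05) or CTDSP1 (up to 0.00335).

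Genes called with library totals alone were 1257 higher and 6532 lower for siRNA A, 958 higher and 4127 lower for siRNA B, and 1415 higher in siRNA A than in siRNA B. Without 1 library the genes higher for siRNA B ran from 1433 (without control replicate 2) to 2295. Of the 103 listed genes, totals alone called 7 higher and 58 lower for siRNA A, 9 higher for siRNA B and 5 higher in siRNA A than in siRNA B. Without 1 library those higher for siRNA B ran from 13 (without control replicate 2) to 24, and those higher in siRNA A than in siRNA B from 11 (without siRNA A replicate 1 or siRNA B replicate 2) to 18. Totals alone also turned CTDSPL2 for siRNA B (−0.032), OXSR1 for siRNA A (−0.011) and AKTIP for siRNA B (−0.052), and the last ran from −0.032 to 0.26 without 1 library. By the longest transcript in place of all exons, the CTDSPL share was 24.9%, 7.28% and 13.7% and the RB1 share 58.3%, 67.7% and 71.2% in control, siRNA A and siRNA B.

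With the replicate number as a block, RB1 passed for siRNA B (0.38, adjusted p = 0.0337), no other call among the 6 genes changed, and CDC45 passed for siRNA B (adjusted p = 0.00459). Same-numbered libraries correlated in their deviations with r = 0.17, 0.44 and −0.39 for siRNA B and control. For the 2 siRNAs r was 0.20, 0.44 and 0.02. Whether the numbers pair any of the groups was not tested. The causes of these changes were not tested. In siRNA A the RBL2 values rest on 225 to 343 reads, fewer than those of RB1 and RBL1, and the part of depth was not tested.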
